A study of Homo sapiens with 6 samples.

Results

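Plasminogen activation, matrix metalloproteinases (MMPs) and tissue inhibitors of metalloproteinases (TIMPs) were examined through 9 genes, namely PLAU, PLAUR, PLAT, MMP2, MMP9, MMP14, MMP15, TIMP1 and TIMP2. Every array probe that the platform annotation assigns to exactly 1 of these genes was taken, whether its signal lay above background or not. This gave 12 probes of the 29377 in the deposited tables, for 9 of the 19432 genes that the annotation names. RNA came from SNU638, a human gastric cancer cell line, and was hybridized to Illumina bead chips. The 3 mock samples carry the empty vector, and the 3 LAP2β samples are of stable cells overexpressing LAP2β, a splice form of the inner nuclear membrane protein encoded by TMPO. LAP2β was expressed from the CMV promoter of a pCMV-SPORT6 construct transfected together with the plasmid pIRES-Neo, under G418 selection, and mock cells were established side by side. Both were grown in RPMI1640 with fetal bovine serum, HEPES and antibiotics. The sources do not say which clone was arrayed or whether the samples of a group were separate cultures, and every p-value below is a measure of array-to-array spread that may be technical. Each array measured a whole culture, in which a smaller share of expressing cells and less RNA per cell cannot be told apart.

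Cells break down the matrix around them with 2 linked protease systems. The urokinase PLAU, held at the cell surface by its receptor PLAUR, and the tissue-type activator PLAT cut plasminogen to plasmin, which digests fibrin and several matrix proteins and can activate some MMP zymogens. The gelatinases MMP2 and MMP9 are secreted, while MMP14 and MMP15 are anchored in the plasma membrane, and MMP14 activates pro-MMP2 at the cell surface in a complex that contains TIMP2. TIMP1 and TIMP2 block the active site of MMPs, and TIMP1 is a poor inhibitor of the membrane-anchored ones. The study arrayed these cells to look for the mechanism behind the motility of the LAP2β line, and proteolysis at the cell surface is one of the processes on which invasion is known to depend.

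Upstream sequences were found for 5 of the 9 genes in the RefSeq promoter table (GRCh38.p14), and 4 genes had no entry that was used here. The 250 bases before the start are shown for the activator and its receptor, whose log2 fold changes were the lowest of the members, and for the membrane MMPs, of which one was above background and the other was not. They run 5′ to 3′ on the gene's strand, and capitals mark the letters of an AP-1 motif (TGANTCA) or a GC box (GGGCGG), each searched on both strands. No match overlapped another one.
PLAU, chr10:73910882-73911131, plus strand, the second of 2 starts in the table: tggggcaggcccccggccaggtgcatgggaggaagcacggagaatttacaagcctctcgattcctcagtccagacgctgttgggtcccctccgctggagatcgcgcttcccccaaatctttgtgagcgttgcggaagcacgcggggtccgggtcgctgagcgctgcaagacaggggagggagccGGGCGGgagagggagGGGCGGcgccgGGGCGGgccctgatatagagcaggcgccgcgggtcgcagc
PLAUR, chr19:43670170-43670419, minus strand: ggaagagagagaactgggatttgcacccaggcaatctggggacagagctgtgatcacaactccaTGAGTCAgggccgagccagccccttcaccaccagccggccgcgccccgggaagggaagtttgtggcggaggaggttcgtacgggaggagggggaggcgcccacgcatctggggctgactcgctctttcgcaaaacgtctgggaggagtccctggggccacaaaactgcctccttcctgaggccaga
MMP14, chr14:22836335-22836584, plus strand: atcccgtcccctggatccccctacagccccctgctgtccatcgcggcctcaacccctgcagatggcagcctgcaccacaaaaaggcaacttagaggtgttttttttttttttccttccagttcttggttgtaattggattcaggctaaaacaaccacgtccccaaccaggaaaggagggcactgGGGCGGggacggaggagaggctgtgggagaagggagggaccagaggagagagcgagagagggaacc
MMP15, chr16:58025504-58025753, plus strand: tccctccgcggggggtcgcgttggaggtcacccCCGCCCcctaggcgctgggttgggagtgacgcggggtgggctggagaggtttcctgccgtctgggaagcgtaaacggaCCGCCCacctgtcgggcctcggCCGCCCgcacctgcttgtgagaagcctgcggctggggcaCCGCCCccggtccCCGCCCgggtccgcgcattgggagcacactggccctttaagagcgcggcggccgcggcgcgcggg
The PLAUR window held 1 AP-1 motif, TGAGTCA, from 186 to 180 bases before the start, and no GC box. The AP-1 letters occur in 6.57% of the 35116 windows of the same length in the table, and the GC box in 42.6% of them. The PLAU window held 3 GC boxes, that of MMP14 held 1, that of MMP15 held 5, and that of TIMP1, which is not printed, held 2. A STAT-type motif (TTCNNNGAA, in 6.57% of all windows) was in none of these windows, nor in that of the other PLAU start. These matches describe the letters only.

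The median deposited intensity per array ran from 189.5 to 199.9 over both lines, and an array had 44.1% to 46.6% of its probes above background (detection p-value under 0.01). Intensities were quantile normalized and log2 transformed, and 13323 probes above background on at least 3 of the 6 arrays were tested with limma. Of these, 220 (1.65%) passed an adjusted p under 0.05 by the Benjamini-Hochberg method. The only TMPO probe above background, annotated to another transcript than the β form, read 9.79 ± 0.21 (SD, n = 3) in mock and 9.76 ± 0.12 (SD, n = 3) in LAP2β cells on the log2 scale (adjusted p = 0.943 from limma). It therefore does not check the overexpression. A TMPO probe annotated to a different transcript, ILMN_1795340, was not above background on any array. It read 7.28 ± 0.070 (SD, n = 3) in mock and 7.30 ± 0.080 (SD, n = 3) in LAP2β cells. At this background level it does not check the overexpression either. The paper examined the overexpression by Western blotting and real-time PCR, apart from the arrays. All 9 epithelial marker genes with a probe were tested and above background, EPCAM, KRT8, KRT18 and CDH1 among them, whereas 0 of 10 fibroblast and 0 of 8 endothelial markers passed the filter. Of 10 myeloid markers, CD68, AIF1 and LYZ passed it and PTPRC, CD14, CSF1R, ITGAM and CD163 did not.

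None of the 5 member genes that could be tested passed the limma test between the lines. PLAU, PLAUR, MMP15, TIMP1 and TIMP2 were above background on all 6 arrays, with 8 probes between them. Of these 8 probes, 0 passed an adjusted p under 0.05, against 1.65% of all tested probes (1.10% higher and 0.555% lower in LAP2β cells). In the fit without a replicate block, 0 of the 8 had an unadjusted p under 0.05, against 13.4% of all. With replicate number as a block, 0 of the 8 passed the adjusted threshold, against 6.16% of all, and the smallest unadjusted p was 0.0283, for PLAU (adjusted p = 0.174 from limma). The median log2 fold change was -0.099 over the 8 probes and -0.0082 over all tested probes. PLAT, MMP2, MMP9 and MMP14, with 1 probe each, were not above background on any array of either line. A p that misses the threshold does not show that levels were equal, so the 95% interval of each difference is given with it, and the small number of arrays limits its precision.

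**Figure D1:**
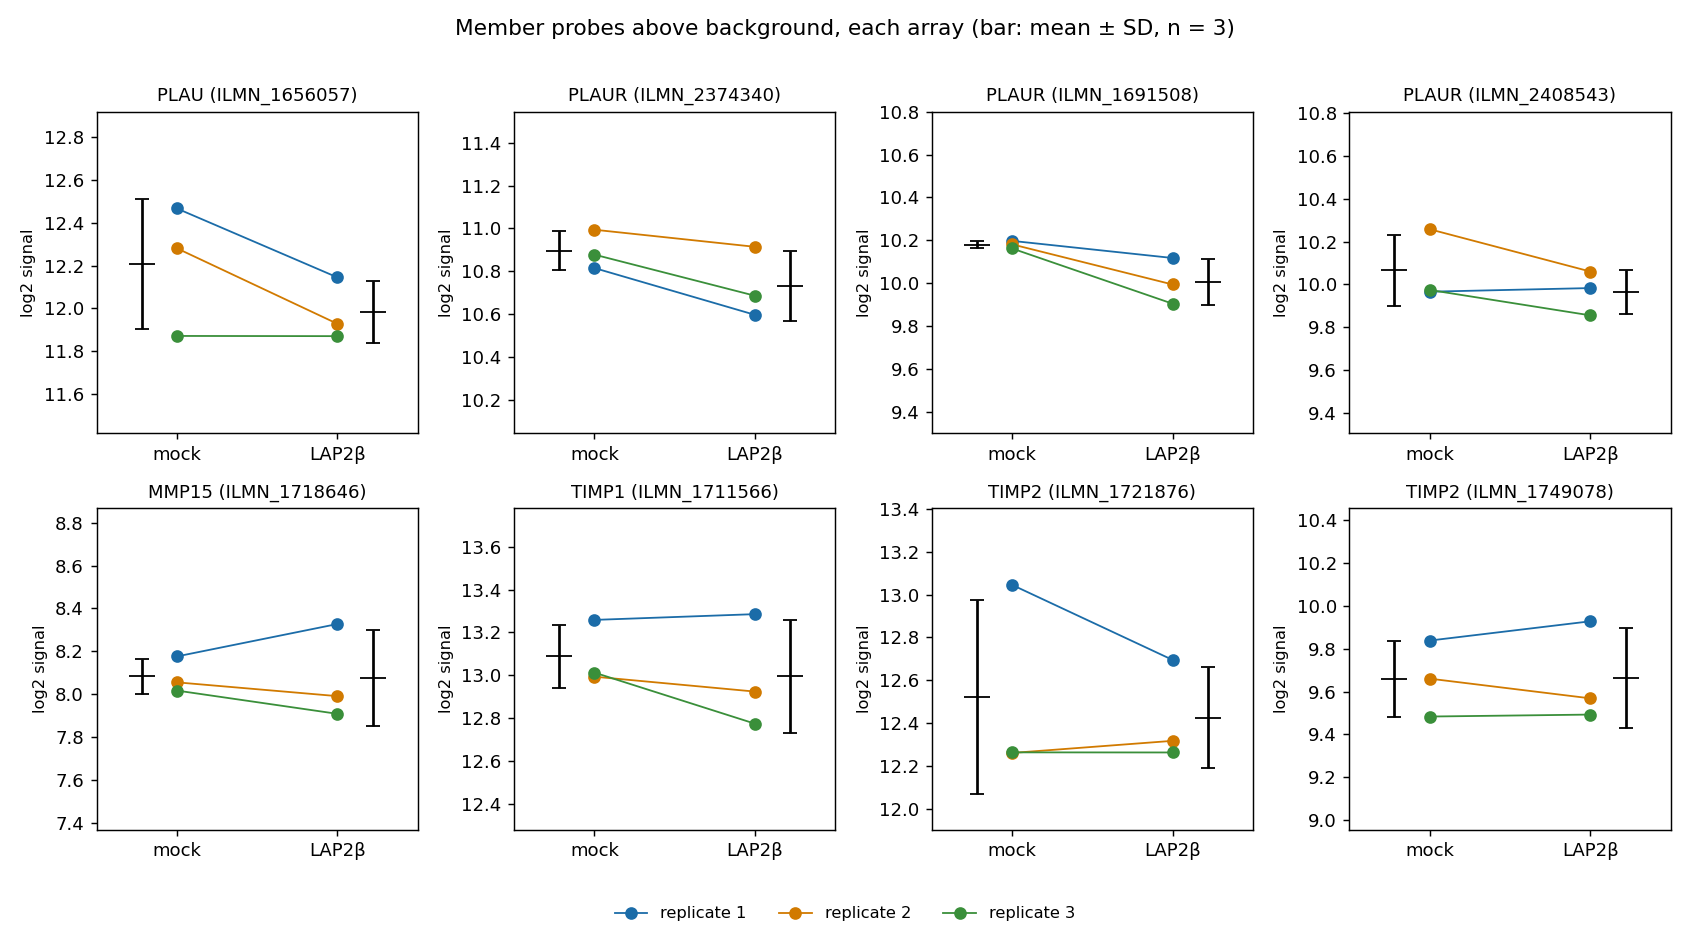
Quantile normalized log2 signal (vertical axis) of the 8 member probes above background in mock and LAP2β cells. Points are single arrays, lines join arrays with the same replicate number, bars give mean ± SD (n = 3), and every panel spans the same range. The groups overlap for every probe but PLAUR ILMN_1691508, and the replicate 1 arrays are the highest of both lines in 6 of the 8 panels.

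PLAU, the urokinase, was read by 1 probe (ILMN_1656057), with log2 signals of 12.47, 12.28 and 11.87 on mock arrays 1 to 3 and 12.14, 11.93 and 11.87 on LAP2β arrays 1 to 3. The third array of each line gave the same low value, and the groups overlapped. The log2 fold change was -0.23 (95% interval -0.54 to 0.091, standard error 0.14, adjusted p = 0.540 from limma), which is a fold between 0.687 and 1.06. Within same-numbered arrays the differences were -0.32, -0.35 and -0.00091, so that pairs 1 and 2 lay lower in LAP2β cells and pair 3 did not move.

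PLAUR, the urokinase receptor, was read by 3 probes, of which ILMN_2374340 and ILMN_1691508 are annotated to one transcript and ILMN_2408543 to another. All 3 had log2 fold changes below zero. ILMN_1691508 had the smallest unadjusted p of the members without a block (0.0776 from limma). It read 10.20, 10.18 and 10.16 on the mock arrays and 10.12, 9.99 and 9.90 on the LAP2β arrays, so that all LAP2β arrays lay below all mock arrays by a small step. The log2 fold change was -0.18 (95% interval -0.37 to 0.023, adjusted p = 0.443 from limma), and the exact permutation test, two-sided, gave p = 0.1, the smallest that 3 arrays against 3 allow. It was the only one of the 8 probes whose groups did not overlap, and 19.0% of all tested probes have groups that do not overlap. ILMN_2374340 read 10.81, 10.99 and 10.88 on the mock arrays and 10.60, 10.91 and 10.69 on the LAP2β arrays. Its groups overlapped, and its log2 fold change was -0.16 (95% interval -0.39 to 0.067, adjusted p = 0.543 from limma). The probe of the other transcript, ILMN_2408543, read 9.97, 10.26 and 9.97 in mock and 9.98, 10.06 and 9.86 in LAP2β cells, which is a difference of -0.100 (95% interval -0.33 to 0.13, adjusted p = 0.739 from limma). Among same-numbered arrays, the 2 probes of the shared transcript were lower in LAP2β cells in 3 of 3 pairs and ILMN_2408543 in 2 of 3 pairs. The 3 probes share their target gene and their arrays and are not replicates of the comparison.

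PLAT, the tissue-type activator (ILMN_1738742), read 7.42, 7.36 and 7.13 on the mock arrays and 7.43, 7.38 and 7.49 on the LAP2β arrays. All of these lay below the background limit of the arrays, the lowest signal of a probe called above background (7.70 to 7.79). The deposited detection p-values of PLAT that matched an array ran from 0.141 to 0.269. None was matched to mock array 3, and the value set from its signal rank was 0.578. No fold is given for it.

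Of the 4 MMPs among the members, only MMP15, a membrane-type enzyme, was above background (ILMN_1718646). Its log2 signal was 8.18, 8.05 and 8.02 on the mock arrays and 8.33, 7.99 and 7.91 on the LAP2β arrays. The LAP2β arrays reached both above and below the mock arrays. The log2 fold change was -0.0072 (95% interval -0.26 to 0.25, adjusted p = 0.989 from limma), a fold between 0.833 and 1.19. These signals lay close to the background limit. The standard error was 0.12 in this fit and 0.21 after neqc, a background correction.

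The gelatinase probes were not above background on any array. MMP2 (ILMN_1762106) read 7.10, 6.86 and 7.11 in mock and 7.16, 6.98 and 6.88 in LAP2β cells, with detection p-values of 0.547 to 0.828. MMP9 (ILMN_1796316) read 7.27, 7.23 and 6.98 in mock and 7.02, 6.98 and 7.00 in LAP2β cells, with detection p-values of 0.390 to 0.745. Signals of this size cannot be told from those of the negative control beads, so they order neither the lines nor the arrays. MMP14, the membrane-type activator of pro-MMP2 (ILMN_1774739), read 7.18, 7.30 and 7.25 in mock and 7.40, 7.49 and 7.36 in LAP2β cells. The LAP2β values were the higher ones, but the detection p-values, 0.110 to 0.500, placed all 6 arrays in the background. With 1 probe a gene, a transcript that the probe does not match would also go unread.

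**Figure D2:**
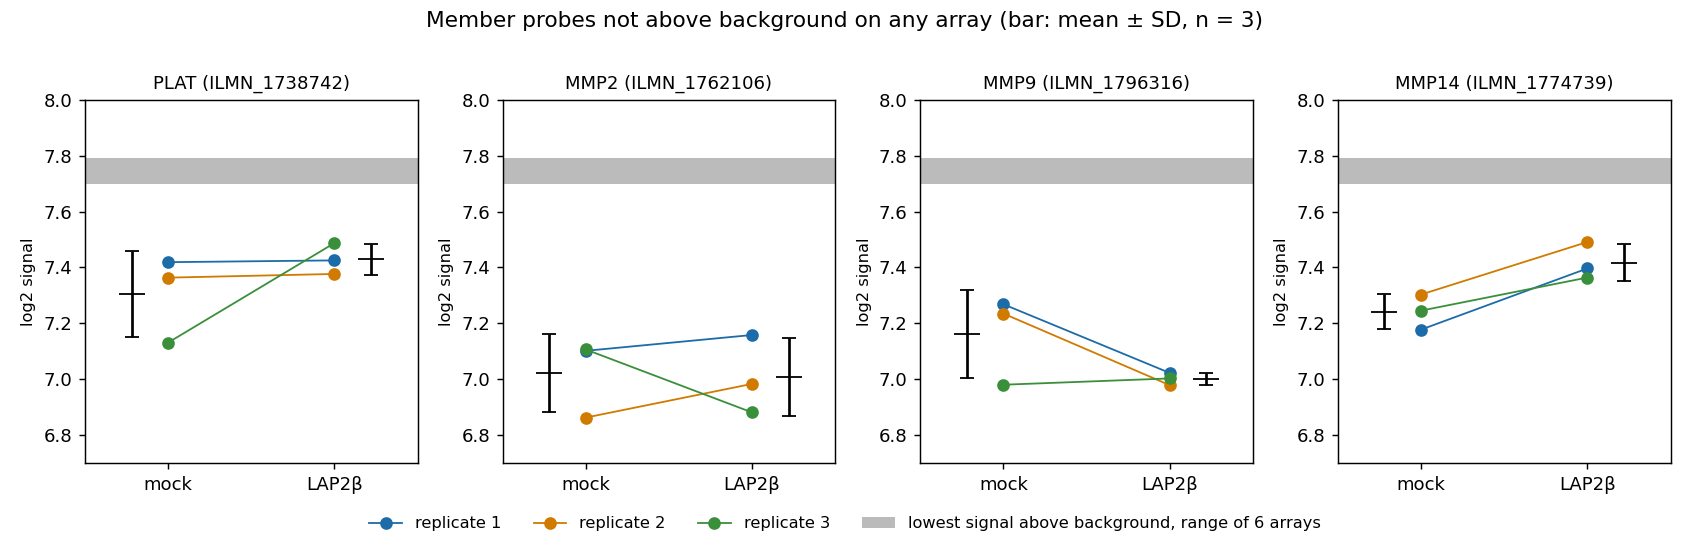
Log2 signal (vertical axis) of the 4 member probes not above background, with lines joining arrays of the same replicate number and bars for mean ± SD (n = 3). The grey band spans the background limits of the 6 arrays, 7.70 to 7.79, and every point lies below it.

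TIMP1, the inhibitor that binds pro-MMP9 (ILMN_1711566), read 13.26, 12.99 and 13.01 on the mock arrays and 13.29, 12.92 and 12.77 on the LAP2β arrays. The first arrays of both lines stood above the rest. The log2 fold change was -0.094 (95% interval -0.39 to 0.20, adjusted p = 0.816 from limma), a fold between 0.765 and 1.15. TIMP2, the partner of MMP14 in pro-MMP2 activation, was read by 2 probes. ILMN_1721876 read 13.05, 12.26 and 12.26 in mock and 12.70, 12.32 and 12.26 in LAP2β cells, with 1 high array in each line. Its log2 fold change was -0.098 (95% interval -0.53 to 0.33, adjusted p = 0.879 from limma). ILMN_1749078 read 9.84, 9.66 and 9.48 in mock and 9.93, 9.57 and 9.49 in LAP2β cells, which is a difference of 0.0024 (95% interval -0.29 to 0.29, adjusted p = 0.997 from limma). For this probe the order of the arrays was the same in both lines.

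**Figure D3:**
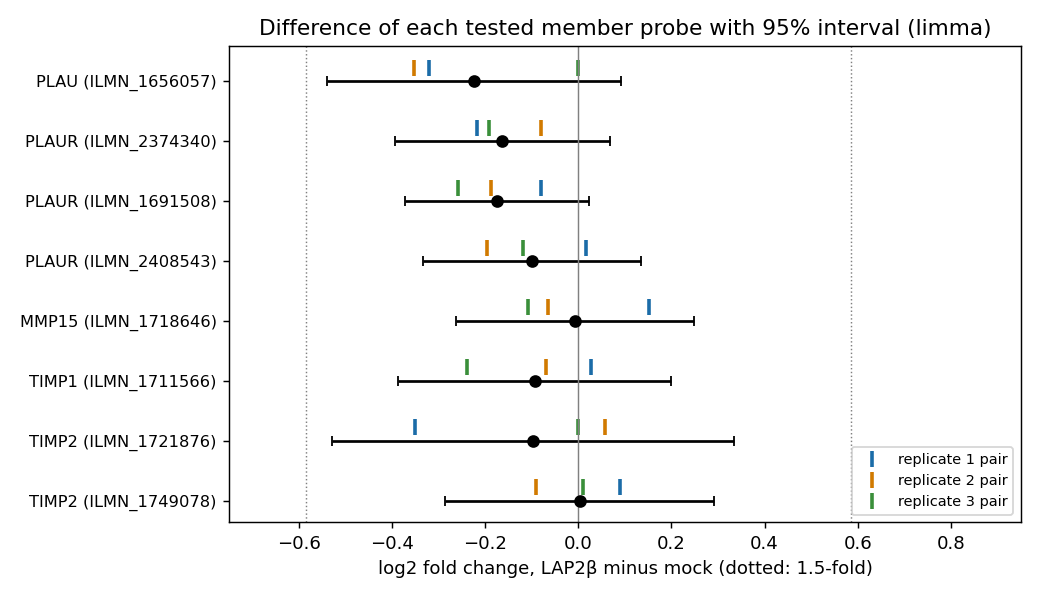
Log2 fold change of LAP2β minus mock (horizontal axis) for the 8 tested member probes, with its 95% interval from limma. Coloured ticks are the differences of same-numbered arrays and dotted lines mark a 1.5-fold difference. In this main fit every interval includes zero and none reaches 1.5-fold, the lowest bound being -0.54 for PLAU and the highest 0.33 for TIMP2. Other settings are not drawn.

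Most member probes varied with the replicate number. In 6 of the 8 probes, those of PLAU, MMP15, TIMP1, TIMP2 (2 probes) and 1 PLAUR probe, replicate 1 was the highest array of both lines, as it was in 19.8% of all tested probes. The share of the sum of squares over the 6 arrays that went with the replicate number was 95.1% and 88.2% for the TIMP2 probes, 84.0% for TIMP1, 82.7% for MMP15 and 62.4% for PLAU, with a median of 43.8% over all tested probes. The share that went with the line was 0.0050% and 2.70% for TIMP2, 6.75% for TIMP1, 0.070% for MMP15 and 25.1% for PLAU. PLAUR was split among its probes. The line took 66.1% of the spread of ILMN_1691508 and the number 22.4%, whereas the number took 58.7% and 70.8% for the other 2. The median share of the line over all tested probes was 19.4%. The number splits the arrays into more groups than the line, and tends to take the larger share even of spread without a pattern. Each share is therefore to be read against its own median over all tested probes. The replicate pattern of the members was noticed in the values and has no test, and the sources do not say what a replicate number stands for.

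**Figure D4:**
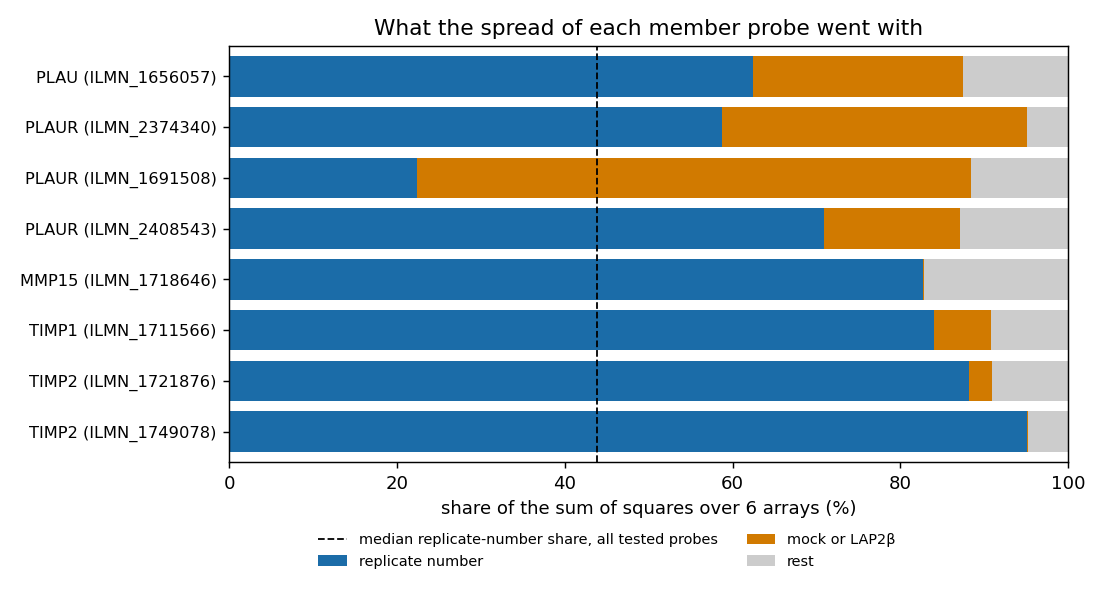
Share (%, horizontal axis) of each member probe's sum of squares over the 6 arrays that goes with the replicate number, with the line (mock or LAP2β) and with neither. The dashed line is the median replicate-number share of all tested probes, 43.8%, which 7 of the 8 member probes exceed.

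Across the 6 arrays, the 3 tested genes whose log2 signal followed TIMP1 most closely were TRAM1 (Pearson r = 0.987), GSTA4 (0.984) and TNNC1 (0.982), each read from its brightest tested probe. For PLAUR, read from ILMN_2374340, they were TEX9 (0.990), AARS2 (0.989) and SCD (0.985). These genes were picked as the highest of all tested ones, and with so few arrays a search of that size can reach such values. Of 9904 genes, 118 had an r over 0.9 with TIMP1 and 126 with PLAUR. Among the members, again by the brightest probe, TIMP1 ran with MMP15 (r = 0.949) and with TIMP2 (0.834). The PLAUR probe ILMN_2374340 ran with neither TIMP1 (r = -0.28) nor TIMP2 (-0.36). For the other PLAUR probes this was not computed, so these values do not describe the gene as a whole. All of these correlations share the same 6 arrays.

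The rest of the pathway was read from 6 lists with 94 genes on the array, of which 31 were tested by their brightest probe. Of the 31 genes, 1 passed the limma test (3.23%), against 1.79% of the 9905 genes tested, and 11 had an unadjusted p under 0.05 (35.5%), against 13.8% of all. With replicate number as a block, 8 passed (25.8%), against 6.43% of all genes. The lists were chosen with earlier results of these data known.

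CLDN1, a tight junction claudin that can recruit MMPs to the cell surface, was the gene that passed. It read 9.93, 9.43 and 9.12 on the mock arrays and 10.58, 10.70 and 10.05 on the LAP2β arrays, so that every LAP2β array lay above every mock array. CLDN1 rose 1.93-fold (log2 fold change 0.95, 95% interval 0.50 to 1.40, adjusted p = 0.0455 from limma). With replicate number as a block its adjusted p was 1.62e-04, with no filter 0.0165, without mock replicate 1 0.00336 and without LAP2β replicate 3 0.0240. It did not pass without mock replicate 2 (adjusted p = 0.223), mock replicate 3 (0.122), LAP2β replicate 1 (0.120) or LAP2β replicate 2 (0.200), nor after neqc (0.137), after normexp (0.0580), with the trend and robust options (0.135) or with detection on all 6 arrays (0.0536). It was one of 8 tested genes in the list of other inhibitors and regulators of MMPs, whose median log2 fold change was 0.19 against -0.0068 over all genes, and the other 7 did not pass. In that list LCN2, a lipocalin that forms a complex with MMP9, had the widest spread. It read 10.35, 9.13 and 8.94 in mock and 11.70, 10.00 and 9.88 in LAP2β cells. The first array of each line was the high one and the groups overlapped. Its log2 fold change of 1.06 (95% interval 0.061 to 2.05) had an adjusted p of 0.336 from limma, and 3.44e-05 with replicate number as a block. The log2 fold change was 0.47 without LAP2β replicate 1 and 1.497 without mock replicate 1. BSG, which induces MMPs in neighbouring cells, read 0.24 higher in LAP2β cells on the log2 scale (adjusted p = 0.271 from limma), with no overlap, and FURIN, which cuts the propeptide of MMP14, differed by -0.12 (adjusted p = 0.615). TIMP3, TIMP4, RECK, TFPI2 and PCOLCE2 were not tested.

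Of 6 tested receptors, cofactors and targets of plasminogen activation, 0 passed the test, and the median log2 fold change was 0.063. S100A10, which with annexin A2 forms a plasminogen-binding complex at the cell surface, read 13.16, 13.59 and 13.48 in mock and 13.65, 13.85 and 13.73 in LAP2β cells, with no overlap. The log2 fold change was 0.33 (95% interval 0.070 to 0.59, adjusted p = 0.235 from limma). Its other tested probe had 0.41 (adjusted p = 0.261). With replicate number as a block the adjusted p was 0.0381 and 0.0300. ANXA2, the annexin of that complex, had log2 fold changes of 0.26, 0.27 and 0.19 on its 3 tested probes (adjusted p = 0.337, 0.588 and 0.475), and it did not pass with the block either (0.0762, 0.0769 and 0.182). ENO1, a glycolytic enzyme that also binds plasminogen at the cell surface, had -0.092 (adjusted p = 0.720). PLG itself was among the 11 genes of this list not tested.

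Of 3 tested inhibitors of plasminogen activators and plasmin, 0 passed. The median log2 fold change was -0.042. SPINT2, a membrane-bound inhibitor of serine proteases, differed by 0.041 (adjusted p = 0.902 from limma) and SERPINI1, neuroserpin, by -0.14 (adjusted p = 0.580). Of the 19 other MMP genes on the array, 2 were tested and 0 passed. MMP11, stromelysin 3, read 8.89, 8.51 and 8.33 in mock and 8.43, 8.02 and 7.93 in LAP2β cells, once more with the order of the arrays the same in both lines. Its log2 fold change of -0.45 (95% interval -0.80 to -0.10) gave 0.223 as the adjusted p from limma, and 0.00450 with replicate number as a block. LAP2β arrays 2 and 3 lay close to the background limit for MMP11, and its size depended on the background correction. After neqc the log2 fold change of MMP11 was -0.77 (standard error 0.28). The other tested gene was MMP23B, at 0.095 (adjusted p = 0.727).

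Of 5 tested ADAM and ADAMTS genes, 0 passed, with a median log2 fold change of 0.023. ADAM10, a sheddase of cell surface proteins, read 9.90, 10.01 and 9.83 in mock and 10.25, 10.49 and 10.23 in LAP2β cells, with no overlap. Its log2 fold change was 0.41 (95% interval 0.19 to 0.63, adjusted p = 0.0794 from limma), and the other tested probe had 0.21 (adjusted p = 0.515). ADAM8 had -0.35 (adjusted p = 0.135). With replicate number as a block, the adjusted p was 0.00891 for the brighter ADAM10 probe, 0.214 for the other one and 0.0285 for ADAM8. ADAM15 had 0.023 (adjusted p = 0.948). Of 7 tested matrix substrates, 0 passed, with a median of 0.14. The laminin chains LAMB1 and LAMB3 had log2 fold changes of 0.34 (adjusted p = 0.190 from limma) and -0.41 (adjusted p = 0.292), and with the block 0.0309 and 0.0446. LAMA5 had 0.14 (adjusted p = 0.737). LCN2, ADAM8, LAMB3, BSG, FURIN, MMP23B and ANXA2 were named after their values had been seen.

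**Figure D5:**
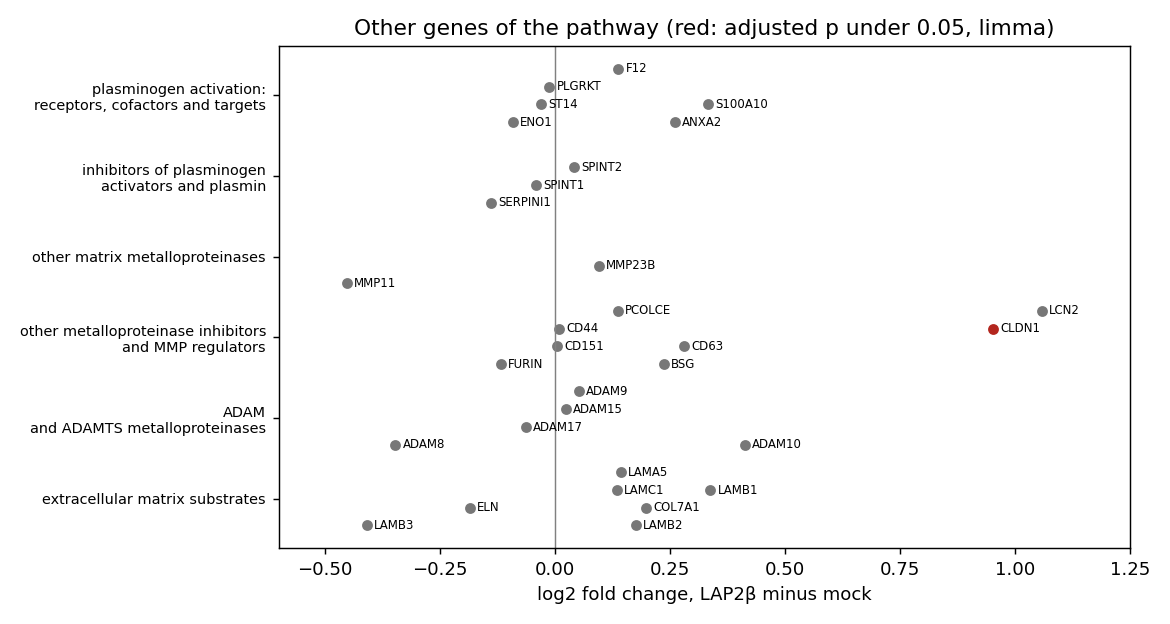
Log2 fold change of LAP2β minus mock (horizontal axis) for the 31 tested genes of the 6 lists, 1 point a gene, spread vertically only for legibility. CLDN1 (0.95, red) is the gene that passed the limma test, LCN2 (1.06) lies farther out but did not pass, and MMP11 (-0.45) is the lowest.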

How the data were processed

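RNA of 3 mock and 3 LAP2β samples of SNU638 cells was put on Illumina Human HT-12 chips by the authors, who processed the scans with BeadStudio. They deposited linear intensity values before and after quantile normalization, with detection p-values from BeadStudio. Whether background was subtracted is not given in the sources used here. A detection p-value column in each deposited table matched no sample, and these 2 were not used. Mock replicate 3 had no column matched to it and was given the median detection p-value of the other arrays at the same signal rank. Whether the unmatched column is its own is not known.

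Starting from the deposited unnormalized intensity values, limma 3.58.1 (R 4.3.3) was used for quantile normalization and, after log2 transformation, for lmFit and eBayes. A probe entered the fit if 3 or more arrays gave it a detection p-value below 0.01. The fit was tested on simulated data drawn without an effect of the replicate number. That test therefore does not cover the spread that went with the replicate number here. Gene symbols came from the platform annotation (27988 with 1 symbol, 1389 with several or none), with 27819 updated by gene ID. Members and lists were chosen with earlier results of these data known. All member probes are named. Of each list, genes past the threshold are named, otherwise the gene with the smallest p and the brightest one.

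The deviations of mock and LAP2β arrays with the same number were correlated over the tested probes (0.544, 0.228 and 0.368). Arrays of different number gave -0.434 to 0.158, and mock 3 with LAP2β 2 (0.158) and mock 2 with LAP2β 3 (0.142) were above zero as well. Each same-numbered value was the highest for its mock array and for its LAP2β array. Each was above 0.1, but so were the last-named pairs of different number, so this limit does not establish a pairing. The main fit and its intervals therefore left the numbers out. They served as a block in an alternative fit and for the differences of same-numbered arrays. Neither the labels nor the paper say what a number shares. The alternatives were other normalizations, background corrections, filters, tests and thresholds, the replicate block, and each array left out.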

Additional observations from a re-analysis of the deposited data

How the results depend on the processing

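The count of member probes past the threshold stayed at 0 under every alternative but one, the methods' t-test without adjustment, which called 1, PLAUR ILMN_1691508 (lower in LAP2β cells, 0 after Benjamini-Hochberg adjustment). With the replicate block it was 0 as well, and it was 0 without each array in turn. Over the settings the log2 fold change ran from -0.40 to -0.095 for PLAU and, for the PLAUR probes, from -0.35 to -0.12, from -0.34 to -0.096 and from -0.27 to -0.0039. It changed sign with the setting for TIMP1 (-0.27 to 0.016), MMP15 (-0.13 to 0.076) and TIMP2 (-0.27 to 0.16 and -0.16 to 0.091). With median scaling or no normalization between arrays the median of all tested probes moved to -0.13 and -0.14, and the lowest adjusted p of a member was 0.0756 and 0.0842 (PLAUR). The member intervals given above are those of the main fit. With median scaling PLAU had -0.38 (standard error 0.15) and PLAUR ILMN_1691508 had -0.33 (standard error 0.10). The limits of the main intervals, zero and 1.5-fold among them, therefore do not carry over to every setting.

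Of all tested probes, 220 passed. The count was 537 with median scaling (21.2% higher, against 66.4%), 521 without normalization between arrays (20.9% higher), 145 after neqc, 1616 by the methods' t-test and 1 after its Benjamini-Hochberg adjustment, 113 at an adjusted p under 0.01, and 821 with the replicate block. Leaving out 1 array gave 99 (mock replicate 2) to 279 (mock replicate 1), with 126 without LAP2β replicate 2.

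Of the genes on the lists, 1 passed. The count was 2 with median scaling and without normalization between arrays (CLDN1 and ADAM8), 7 by the methods' t-test, 8 with the replicate block, and 0 after neqc, after normexp, with detection on all 6 arrays, with the trend and robust options, after adjustment of the methods' t-test and at an adjusted p under 0.01. Leaving out 1 array gave 0 (mock replicate 2 or 3, LAP2β replicate 1 or 2) to 2 (mock replicate 1). The cause of these shifts was not tested. Slide and scan date were not used here. Signals below background limit PLAT, MMP2, MMP9 and MMP14 to a statement of detection.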
